A study of Homo sapiens with 6 samples.

Results

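The 77 genes described here encode nuclear subunits of the mitochondrial respiratory chain and ATP synthase, out of 19775 genes measured. They were taken by the symbol given to each probe set in the platform annotation: NDUFA, NDUFB, NDUFC, NDUFS and NDUFV for complex I, the SDH genes for complex II, UQCR for complex III, COX4 to COX8 for complex IV and ATP5 for complex V. Assembly factors, pseudogenes, antisense and readthrough genes were left out, which gave 33, 3, 6, 17 and 18 genes for complexes I to V. By symbol these include COX7A2L, a factor that joins complexes III and IV, and ATP5IF1, an inhibitor of complex V, which are not structural subunits. Signals came from MDA-MB-231, an established triple-negative breast cancer line at passage 4 grown with 10% serum. Cells of 3 knockdown clones carried a retroviral short hairpin against WASF3, the WAVE-family activator of branched actin growth, and cells of 3 control clones carried the empty vector or a hairpin against GFP. All 6 clones had gone through puromycin selection (1.0 µg/ml for 2 weeks). Each was a single drug-resistant clone on 1 array, so p-values measure the spread between clones of 1 line. The sources used here do not tell which hairpin or control vector a clone carried. Probe sets that name several genes, among them those of NDUFC2 and UQCRH, were not used.

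Complexes I to IV pass electrons from NADH and succinate to oxygen through coenzyme Q and cytochrome c, and complexes I, III and IV pump protons across the inner mitochondrial membrane. Complex V, the ATP synthase, uses the returning protons to make ATP. Complex II is also succinate dehydrogenase of the citric acid cycle, and several complex IV subunits exist as a widespread form and as forms restricted to muscle, lung or testis. MDA-MB-231 cells are known for strong glycolysis, and respiratory chain transcripts are among the abundant nuclear messages of most dividing cells.

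Values are log2 RMA signals, where 1 unit is a 2-fold difference. A change is the knockdown mean less the control mean, and SE is its standard error in the limma fit. Each array read the RNA of a whole culture, so fewer cells with a transcript and less of it per cell cannot be told apart. WASF3 itself read 5.40, 5.80 and 4.52 in knockdown clones 1, 2 and 3 and 6.77, 6.42 and 6.59 in the control clones (change −1.35, SE 0.29, limma adjusted p = 0.102), without overlap. Markers of the line (VIM, CD44, CAV1, AXL, MSN) averaged 12.5 to 12.8 in knockdown and 12.7 to 12.8 in control clones, luminal markers such as ESR1 and CDH1 averaged 5.57 to 6.53 and 5.81 to 5.93, and leukocyte markers 4.76 to 4.90 and 4.92 to 4.997. None of these markers passed the test. An index of RNA quality, the 3′ minus 5′ signal of the GAPDH and ACTB control probe sets, was higher in knockdown (1.80 ± 0.27, SD, n = 3) than in control clones (1.29 ± 0.17, SD, n = 3), without overlap (exact two-sided permutation p = 0.1, the smallest that 3 against 3 allows).

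None of the 77 subunit genes passed the test between knockdown and control clones (limma, adjusted p under 0.05), while 0.738% of all genes did, 0.319% higher and 0.42% lower. Of their 151 probe sets 0 passed, beside 0.558% of all probe sets, and 9 higher and 7 lower ones had an unadjusted p under 0.05 (14% of all probe sets in either direction). At that unadjusted limit there were 7 member genes (9.09%, beside 16.8% of all genes). Of them 5 were higher and 2 lower, where 9.11% and 7.67% of all genes were. The groups did not overlap for 16 members (20.8%, beside 24.7% of all genes), 9 higher and 7 lower, where 12.1% and 12.6% of all genes were. The median change over the members was −0.024, beside −0.011 over all genes, and 36 members had a higher and 41 a lower mean in knockdown clones. The median size of change, whatever its direction, was 0.0817 for the members and 0.127 for all genes. Over the 2137 genes with a mean signal above 10, 25.8% had an unadjusted p under 0.05 (limma). In that set 36.5% had groups without overlap, and the median size of change was 0.162. The changes ran from −0.30 to 0.44. No member passed in the alternative fits on all 6 clones either. Of all genes these called 1.2% with the mean of all probe sets and 0.638% without probe sets ending in _x_at or _s_at. Without dim probe sets they called 1.5%, with an intensity trend and robust prior 0.399%, and with array weights 3.61%. Centred arrays gave 0.753%, an RNA quality covariate 0.00506% and replicate numbers as a block 0.0152%. Leaving out knockdown clone 2 (0.101% of all genes called) or control clone 1, 2 or 3 (0.0101%, 0.0152% and 0.0101%) also left no member called, and the calls without knockdown clone 1 or 3 are given with the genes.

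The intervals give the sizes that these arrays leave room for. For 69 of the 77 members the 95% interval lay within a 1.5-fold difference in either direction (0.585 on the log2 scale). This held for 76% of all genes and for 70.2% of those with a mean signal above 10. For all 77 members the interval lay within 2-fold. The 8 members whose intervals reached beyond 1.5-fold were NDUFS1, NDUFV3, NDUFB8, NDUFB10, ATP5PD, ATP5MC1, ATP5IF1 and ATP5F1B. These were not always the widest intervals, as an interval around a larger change reaches the bound sooner. Of the members, 70 read above 9 in mean signal, the lowest of them at 9.40, and 7 read at 6 or below. Those 7 were the restricted complex IV isoforms COX4I2, COX6A2, COX6B2, COX7A1, COX7B2 and COX8C, and ATP5MF, which had only 1 usable probe set. Leukocyte, fibroblast and endothelial markers had a median level of 5.01 and a highest of 7.39 (PECAM1), so these 7 genes are not shown to be above background.

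**Figure D1:**
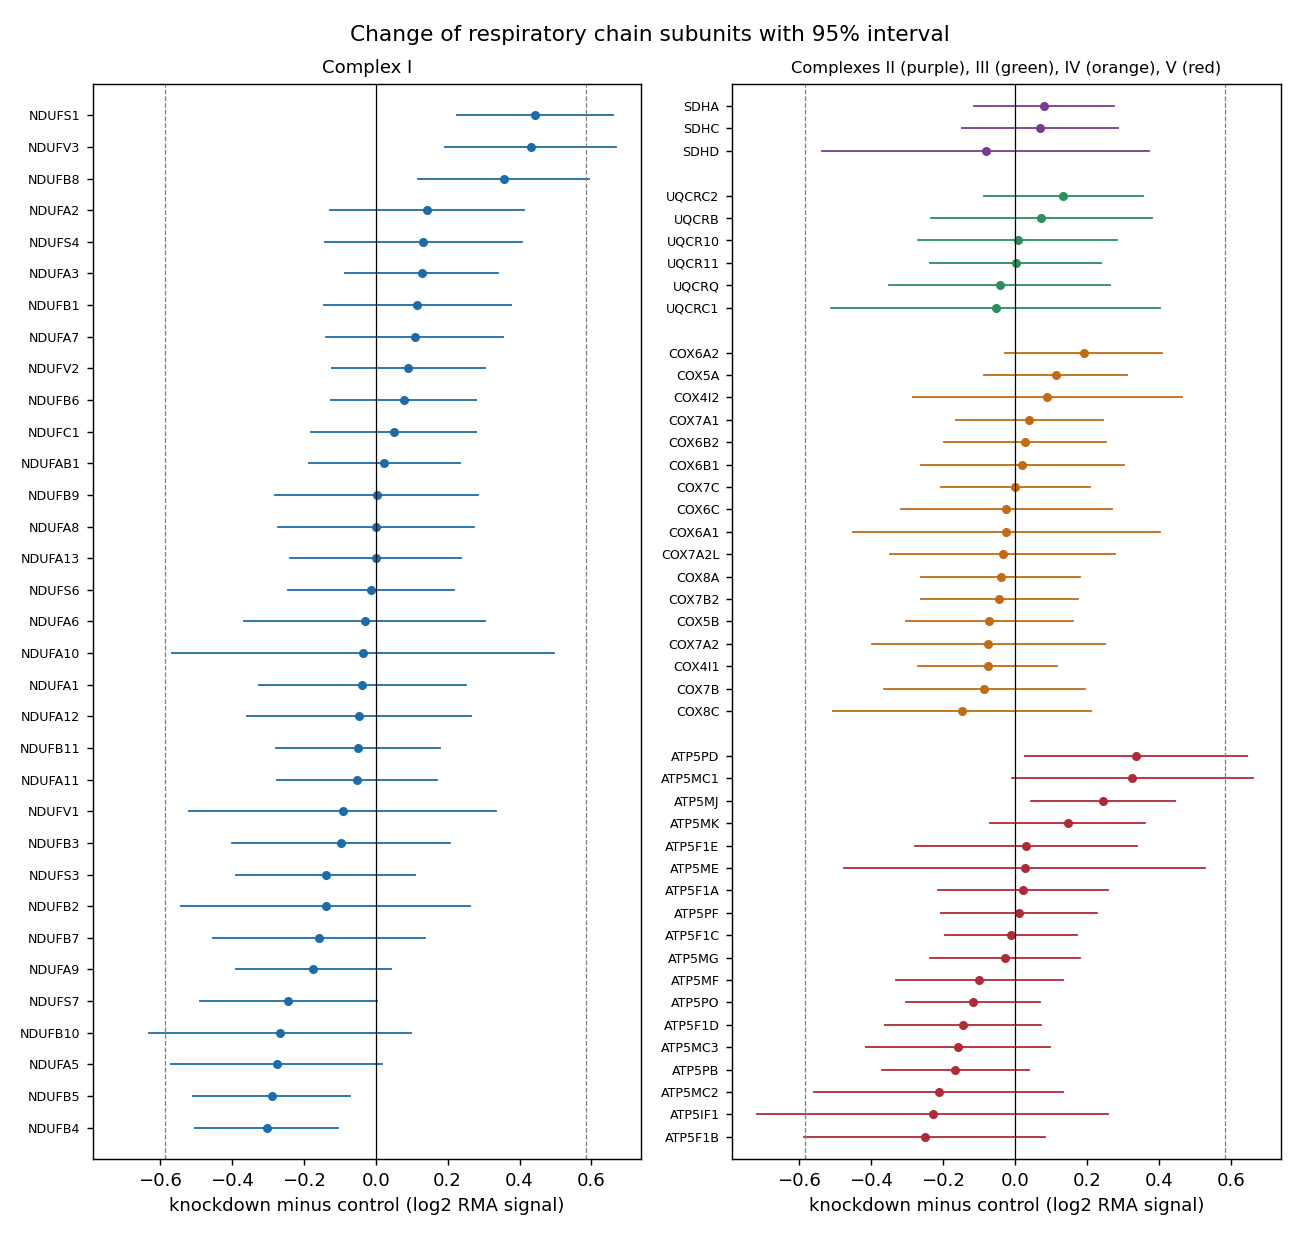
Change of each of the 77 subunit genes in log2 RMA signal (point) with its 95% interval from the limma fit (line), sorted within each complex; the dashed lines mark a 1.5-fold difference. Most intervals include 0, NDUFS1 and NDUFV3 lie farthest to the right in complex I and NDUFB4 farthest to the left.

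Complex I held the largest differences in both directions. NDUFS1, the large iron-sulphur subunit of the arm that takes electrons from NADH, read 10.00, 9.82 and 10.02 in knockdown clones 1, 2 and 3 and 9.46, 9.51 and 9.54 in control clones 1, 2 and 3. All knockdown clones were above all control clones, with a change of 0.44 (SE 0.09, limma adjusted p = 0.0936). Of its 5 probe sets 4 had this sign, and another gave 0.74 (SE 0.13, limma adjusted p = 0.0621), while the probe set next in brightness gave 0.02.

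NDUFV3, an accessory subunit of the same arm, read 10.28, 10.04 and 10.00 in knockdown clones against 9.67, 9.68 and 9.68 in control clones. The change was 0.43 (SE 0.10, limma adjusted p = 0.121), with clone 1 highest, and its second, dimmer probe set gave −0.06. NDUFB8, a membrane-arm subunit often used as an antibody marker of assembled complex I, read 11.80, 11.51 and 11.63 against 11.23, 11.33 and 11.32. All 3 of its probe sets were higher in knockdown clones, at 0.36, 0.27 and 0.44 (limma adjusted p from 0.180 to 0.280).

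Other membrane-arm subunits lay on the opposite side. NDUFB4 read 12.68, 12.53 and 12.61 in knockdown clones and 12.89, 12.95 and 12.90 in controls, which differed by −0.30 (SE 0.09, limma adjusted p = 0.176). NDUFB5, named after its values were seen, read 11.36, 11.58 and 11.53 against 11.79, 11.81 and 11.74 (−0.29, SE 0.09, limma adjusted p = 0.229). For both genes the groups were apart. The 20 nearest genes to NDUFB4 in RefSeq order on chromosome 3, 10 on each side with a mean signal above 5, had a median change of −0.34, with 19 lower, and those of NDUFB8 on chromosome 10 a median of 0.26. Neighbours of NDUFS1 had a median of 0.028 and those of NDUFV3 −0.20. Whether these neighbourhoods contribute to the values was not tested.

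The 5 core subunits of complex I that were measured, which belong to its conserved catalytic part, had a median change of −0.091 with 2 higher and 3 lower, and the 28 accessory subunits −0.021 with 13 higher and 15 lower. NDUFS7, a core subunit next to the quinone site that was named after its values were seen, read 10.01, 9.80 and 10.11 against 10.15, 10.26 and 10.24 (−0.24, SE 0.11, limma adjusted p = 0.362), again apart. NDUFA5, an accessory subunit, had one of the largest spreads among control clones (10.42, 10.10 and 10.22) and read 9.78, 10.10 and 10.03 in knockdown clones, so its groups overlapped (limma adjusted p = 0.387). Without knockdown clone 3 NDUFV3 was called (0.49, limma adjusted p = 0.0451), in a fit that called 6.19% of all genes. Over all 33 genes of complex I the median was −0.031.

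**Figure D2:**
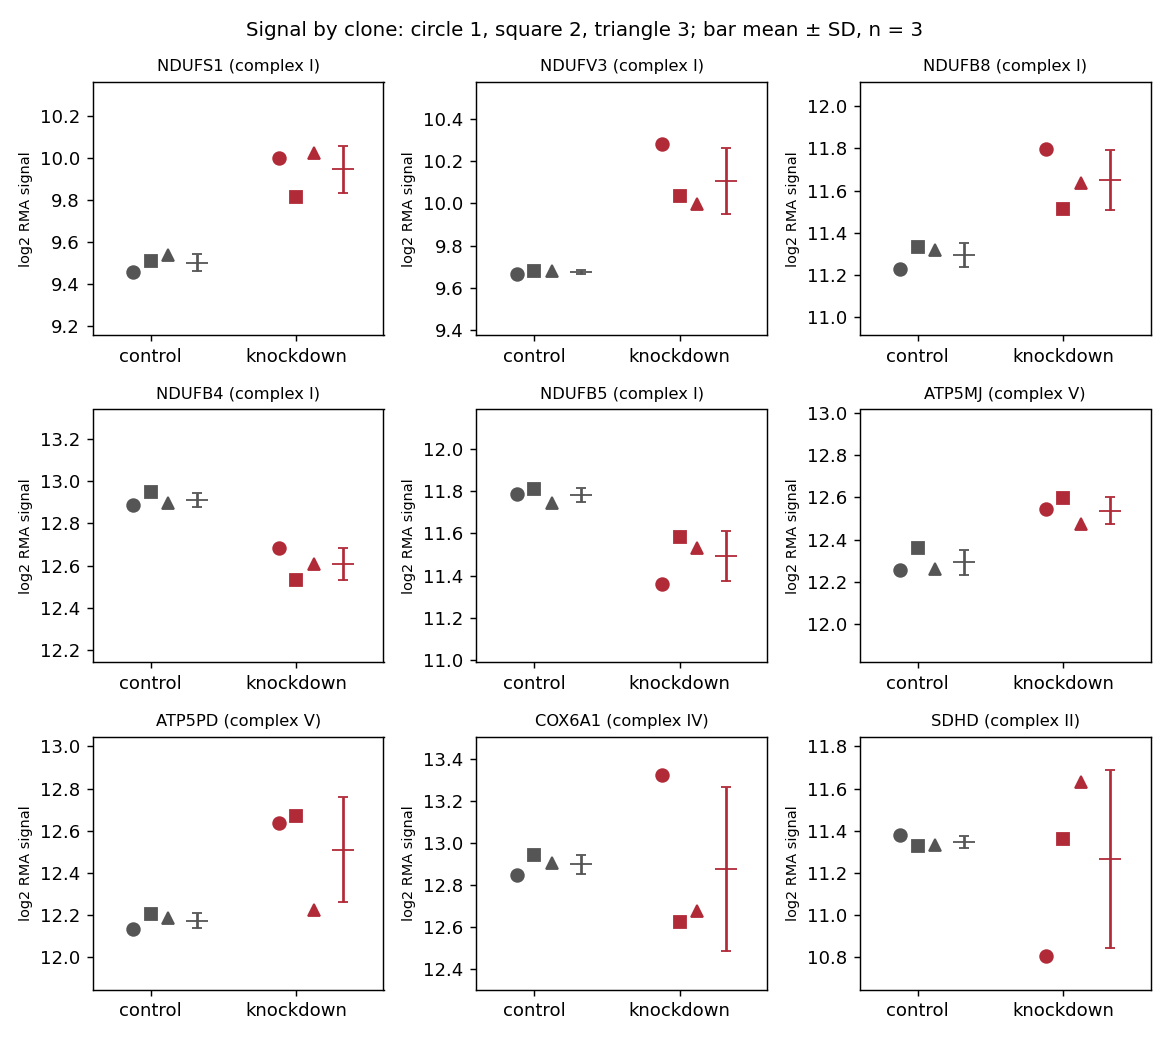
Log2 RMA signal of 9 subunit genes in each clone (circle, square and triangle are clones 1, 2 and 3; grey control, red knockdown; the bar gives mean ± SD, n = 3), with every panel spanning 1.2 units. NDUFS1, NDUFV3, NDUFB8 and ATP5MJ sit higher and NDUFB4 and NDUFB5 lower in all knockdown clones, while COX6A1 and SDHD scatter to both sides of the control clones.

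Of complex II, SDHA, SDHC and SDHD were measured. SDHA, the flavoprotein that oxidises succinate, read 10.94, 10.98 and 10.88 in knockdown and 10.80, 10.86 and 10.90 in control clones (0.08, SE 0.08, limma adjusted p = 0.734). SDHD, which anchors the complex in the membrane, read 10.81, 11.36 and 11.63 in knockdown clones 1, 2 and 3 and 11.38, 11.33 and 11.33 in control clones. Clone 1 was below and clone 3 above every control clone, and the mean change was −0.08 (SE 0.19, limma adjusted p = 0.898).

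SDHC, the other membrane anchor, gave different answers on its 7 probe sets. The brightest read 9.85, 9.84 and 9.65 against 9.69, 9.76 and 9.68, a change of 0.07 (SE 0.09, limma adjusted p = 0.799). The 3 probe sets next in brightness were lower in knockdown clones, by −0.35, −0.44 and −0.68, each with an unadjusted limma p under 0.05 (adjusted p from 0.262 to 0.326). The dimmest of these 3 read 7.66, 8.71 and 8.33 in knockdown clones and 8.98, 8.90 and 8.85 in control clones. The annotation does not say which transcripts each probe set covers, so the SDHC level is uncertain. The complex II median was 0.070, and −0.015 when probe sets were averaged per gene.

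The 6 genes of complex III had a median of 0.0049, between −0.05 and 0.13, and none reached an unadjusted p of 0.05 in limma. UQCRC2, a core protein of the matrix side, read 10.60, 10.66 and 10.80 in knockdown and 10.58, 10.47 and 10.60 in control clones (0.13, SE 0.09, limma adjusted p = 0.593). Its partner UQCRC1 read 10.24, 10.46 and 11.02 against 10.75, 10.48 and 10.65, so the knockdown clones lay on both sides of the control clones (−0.05, SE 0.20). The small subunits UQCRB and UQCRQ, which sit near the quinone sites, gave 0.07 (SE 0.13) and −0.04 (SE 0.13), with clone 1 highest for both (13.46 and 12.80). CYC1, the cytochrome c1 subunit whose symbol lies outside the rule, gave −0.046 (SE 0.12, limma adjusted p = 0.909).

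Changes of the 17 genes of complex IV ran from −0.15 to 0.19, with a median of −0.024 and a median size of 0.0435. None reached an unadjusted p of 0.05 in limma. Among the 10 widespread subunits COX5A, a subunit on the matrix side, read 12.38, 12.26 and 12.25 against 12.18, 12.21 and 12.16 and did not overlap (0.11, SE 0.08, limma adjusted p = 0.619). COX4I1, the main form of the regulatory subunit that binds ATP, read 12.84, 12.72 and 12.78 against 12.83, 12.88 and 12.86 (−0.08, SE 0.08).

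Widespread subunits were set beside their restricted isoforms, and no gene of these pairs was called. COX4I2, the lung form described as induced by low oxygen, read 5.66, 5.16 and 5.12 in knockdown and 5.08, 5.35 and 5.23 in control clones (0.09, SE 0.16, limma adjusted p = 0.856). COX6A2, the muscle partner of COX6A1, read 5.02, 5.01 and 4.91 against 4.76, 4.91 and 4.70 and COX6A1 itself 13.32, 12.63 and 12.68 against 12.85, 12.94 and 12.90. The changes were 0.19 (SE 0.09) for COX6A2, at a level not shown to be above background, and −0.02 (SE 0.18) for COX6A1. COX7A1 (0.04), COX7B2 (−0.04), COX6B2 (0.03) and COX8C (−0.15) and their partners COX7A2 (−0.07), COX7B (−0.08), COX6B1 (0.02) and COX8A (−0.04) had limma adjusted p from 0.737 to 0.962. COXFA4 and COXFA4L2, known earlier as NDUFA4 and NDUFA4L2 and now placed with complex IV, are outside the symbol rule. COXFA4 read 12.75, 11.98 and 12.05 in knockdown and 12.40, 12.47 and 12.38 in control clones (−0.16, SE 0.20), and COXFA4L2, a hypoxia-induced paralogue, read 5.32, 5.51 and 5.69 against 5.64, 5.67 and 5.78 (−0.19, SE 0.11, limma adjusted p = 0.526).

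Complex V had 7 of 18 genes with groups apart (38.9%, beside 24.7% of all genes), 4 higher and 3 lower, and a median change of −0.019. Among the 2137 genes with a mean signal above 10 the share with groups apart was 36.5%, near that of complex V. ATP5MJ, a small membrane subunit, read 12.54, 12.60 and 12.47 in knockdown and 12.26, 12.36 and 12.26 in control clones (0.24, SE 0.09, limma adjusted p = 0.265), and its other probe set gave 0.42 (SE 0.17). ATP5PD, a subunit of the peripheral stalk, read 12.64, 12.67 and 12.22 against 12.13, 12.20 and 12.19 (0.34, SE 0.13, limma adjusted p = 0.313). Clone 3 was only just above the control clones. Without it ATP5PD was called (0.48, limma adjusted p = 0.0292), in the same fit that called 6.19% of all genes.

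ATP5MC1, 1 of 3 genes for the proton-carrying ring, read 11.14, 10.72 and 10.60 against 10.43, 10.54 and 10.51 (0.33, SE 0.14, limma adjusted p = 0.369). The other ring genes, ATP5MC2 and ATP5MC3, had lower means (−0.21 and −0.16) with overlapping groups. ATP5PB, the long stalk subunit, read 12.82, 12.99 and 12.87 against 13.05, 13.08 and 13.04 (−0.17, SE 0.09, limma adjusted p = 0.459). The catalytic subunit ATP5F1B read 12.40, 12.13 and 11.92 against 12.48, 12.22 and 12.50 and its groups overlapped (−0.25, SE 0.14), while the 5 genes of the catalytic head and central stalk had a median of −0.011.

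ATP5IF1, the small protein that blocks the enzyme from running backwards, read 10.83, 10.07 and 10.01 in knockdown clones 1, 2 and 3 and 10.47, 10.56 and 10.56 in control clones. Clone 1 was above and clones 2 and 3 were below the control clones, for a change of −0.23 (SE 0.21, limma adjusted p = 0.694). Without clone 1 it was −0.49 and was called (limma adjusted p = 0.0464), in a fit that called 3.58% of all genes. The 20 neighbours of ATP5IF1 on chromosome 1 had a median change of −0.24, and those of ATP5MC1 and ATP5PD on chromosome 17 had medians of 0.27 and 0.19. Neighbours of ATP5F1B had a median of −0.20. Medians were closer to 0 around ATP5MJ (−0.011), ATP5PB (−0.0094) and ATP5ME (−0.025), of which ATP5MJ and ATP5PB had groups apart. A contribution of neighbourhoods to the complex V values was not tested.

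The knockdown clones differed more from each other than the subunits differed between groups. The median SD was 0.153 among knockdown clones and 0.0448 among control clones, and it was larger among knockdown clones for 70 of the 77 members. The same contrast held over the 2137 genes with a mean signal above 10 (0.192 and 0.0441). Clone 1 was the highest of the 3 knockdown clones for 51 members (66.2%), beside 35.8% of all genes. It was above every control clone for 51 members, where 36.7% of all genes were, and below every control clone for 14, where 34.3% were. Clones 2 and 3 were below every control clone for 41 and 45 members, beside 37.7% and 39.2% of all genes. They were above every control clone for 20 and 21 members, beside 35.3% and 34.5%. Over the 2137 genes with a mean signal above 10, clone 1 was the highest knockdown clone for 32.5%. In that set it was above every control clone for 41.0% and below for 46.5%. Clones 2 and 3 were below every control clone for 39.5% and 50.3% of that set, and above for 46.6% and 38.8%.

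As a result the median of the members against the control mean was 0.099, −0.077 and −0.088 in knockdown clones 1, 2 and 3, while the medians over all genes were 0.0030, −0.015 and −0.020. Clone 1 was the highest in complexes I, III, IV and V, with clone 1 at 0.099, 0.18, 0.098 and 0.094, clone 2 at −0.069, −0.11, −0.078 and −0.080 and clone 3 at −0.11, −0.022, −0.11 and −0.089. Complex II did not, at 0.089, 0.13 and 0.027. Within complex I the 28 accessory genes had medians of 0.12, −0.073 and −0.14 in clones 1, 2 and 3. The 5 core genes had −0.032, −0.055 and 0.22, and 4 of them were highest in clone 3 and 1 in clone 1. All 10 widespread complex IV subunits were highest in clone 1, and 9 of them were above every control clone there. This pattern was noticed in the data and has no test. The 5 luminal markers were also all highest in clone 1 among the knockdown clones, with list medians of 0.32, −0.15 and −0.23 in clones 1, 2 and 3. CDH1, the epithelial cadherin, stood out, at 7.33, 4.44 and 4.47 in knockdown and 5.19, 4.59 and 5.05 in control clones. The luminal markers had a median level of 5.81, and CDH1 too stayed below the 7.39 of PECAM1. Most of these values are thus not shown to be above background. Whether what sets clone 1 apart on these markers bears on the subunits was not tested.

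A smaller number of members ran the other way. NDUFA10, an accessory subunit of complex I with the largest spread among knockdown clones (SD 0.50), read 8.89, 9.36 and 9.90 in clones 1, 2 and 3 and 9.37, 9.40 and 9.47 in control clones. SDHD and UQCRC1, given above, and NDUFV1, the NADH-binding core subunit (10.21, 10.57 and 10.98 against 10.70, 10.61 and 10.72), had the same order. ATP5ME, a membrane subunit of complex V, had the opposite one, at 12.44, 11.90 and 11.49 against 11.86, 11.95 and 11.93. The mean changes of these genes were near 0 (from −0.09 to 0.03), with deviations of single clones reaching 0.54 in size.

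The RNA quality index was set beside these medians. It was 2.11 in knockdown clone 1 and 1.62 and 1.66 in clones 2 and 3, and in control clones 1, 2 and 3 it was 1.13, 1.47 and 1.26 beside member medians of −0.029, 0.033 and −0.00010. In each group the clone with the highest index also had the highest member median. Across groups the order differed: knockdown clones 2 and 3 had a higher index than every control clone and lower member medians (−0.077 and −0.088). With the index as a covariate the member median was −0.15, against −0.032 for all genes, and 0 members were called. At an unadjusted p under 0.05 (limma) there were 11 members. The share of all genes at that limit in this fit is not given, so the count cannot be read as a rise. That fit estimates the effect of the index and of the group from 6 arrays on which both differ. Its values are for the group and not for single clones, so the part of RNA quality in the clone pattern was not tested.

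**Figure D3:**
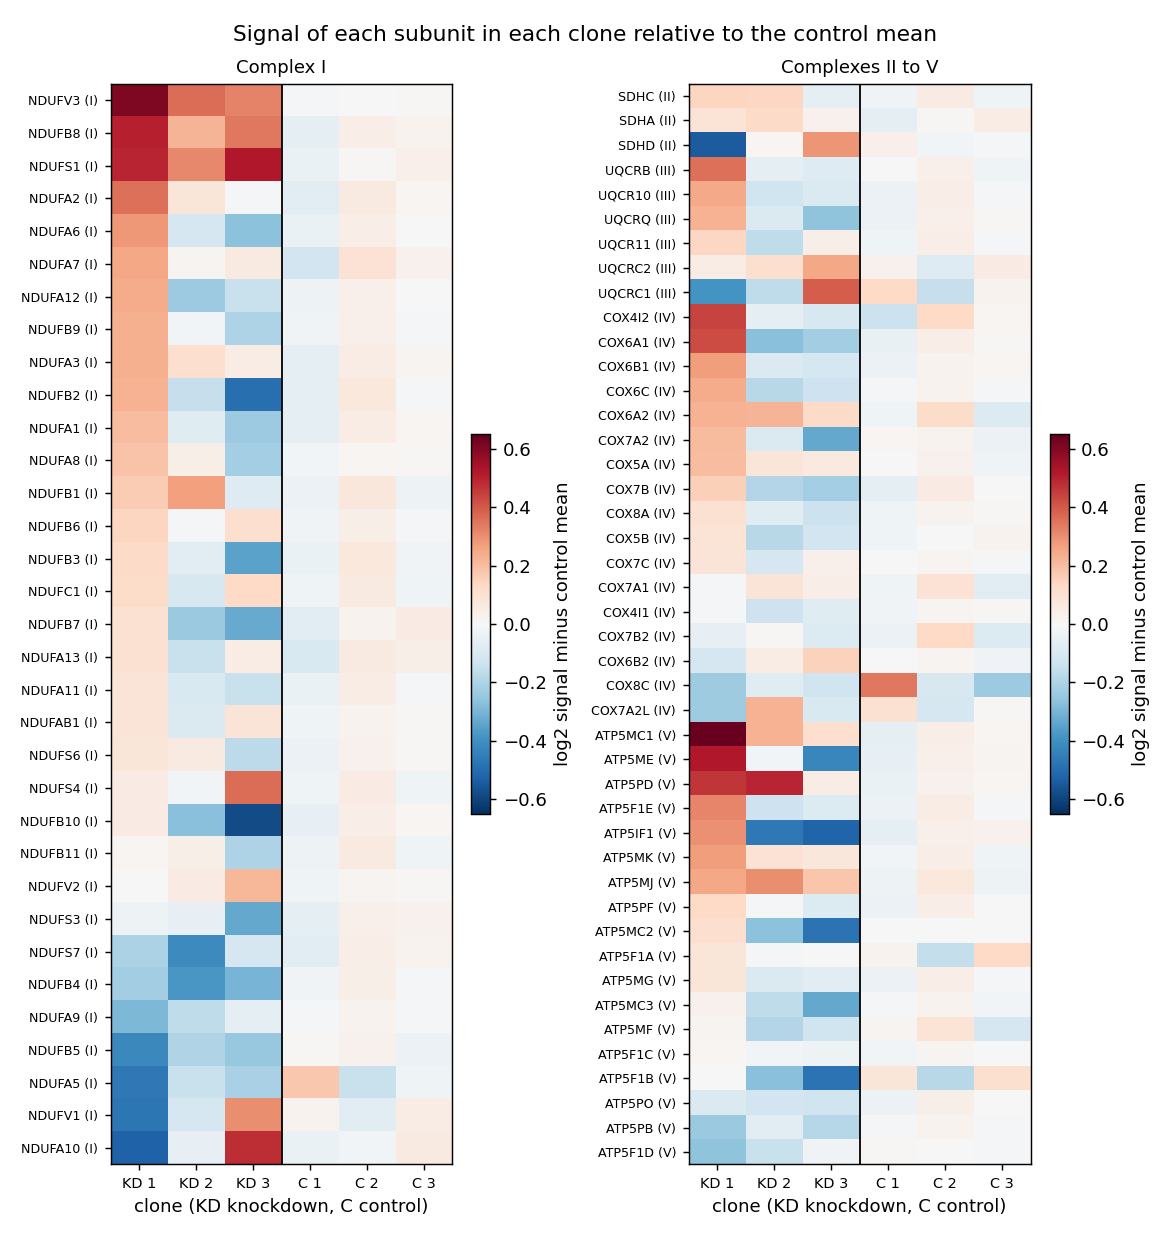
Log2 RMA signal of each of the 77 subunit genes in each clone minus the mean of the control clones, sorted within each complex by knockdown clone 1 (red higher, blue lower; KD knockdown, C control). Knockdown clone 1 is mostly red and clones 2 and 3 mostly blue, and the control columns are pale. NDUFA10, NDUFV1, SDHD and UQCRC1 are blue in clone 1 and red in clone 3.

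Promoter sequence, from 250 bases before to 50 bases after the annotated start, was at hand for 66 of the 77 genes (RefSeq, GRCh38.p14; the first listed start where a gene has several). Promoters of respiratory chain genes are textbook targets of the nuclear respiratory factors NRF1 and GABPA, an ETS-family protein, and of YY1. Matches were counted on both strands to the NRF1 letters GCGCATGCG, the ETS letters CCGGAAG and the YY1 letters AAGATGGCG, none of which contains another. They were found in 10 (15.2%), 18 (27.3%) and 7 (10.6%) of the 66 promoters, where 2.76%, 14.2% and 2.74% of 15843 protein-coding promoters held them. The stricter palindromic NRF1 form of 10 letters was in 4 (6.06%) beside 1.755%, and was known when the shorter one was chosen. At least 1 of the 3 motifs was in 29 members (43.9%), beside 18.3% of all. A match was in 13 of 31 genes of complex I, 1 of 2 of complex II, 3 of 5 of complex III, 5 of 14 of complex IV and 7 of 14 of complex V. A match is a description of letters and not a binding site. The median GC content was 61.2% for the members and 62.7% for all.

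The stretch just before the start is shown for 4 genes, with matches in capitals. NDUFS1 and NDUFB4 had the largest differences up and down. Clone 1 was the highest knockdown clone for COX6A1 and the lowest for SDHD. They lie at chr2:206159445-206159559 (minus strand), chr3:120596221-120596335 (plus), chr12:120437998-120438112 (plus) and chr11:112086758-112086872 (plus). All are 5′ to 3′ on the strand of the gene and overlap 0 gene spans of the RefSeq table.
NDUFS1: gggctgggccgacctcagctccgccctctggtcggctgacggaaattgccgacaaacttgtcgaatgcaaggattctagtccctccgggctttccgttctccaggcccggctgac
NDUFB4: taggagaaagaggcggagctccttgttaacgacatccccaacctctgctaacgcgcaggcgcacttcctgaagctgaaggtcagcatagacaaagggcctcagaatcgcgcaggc
COX6A1: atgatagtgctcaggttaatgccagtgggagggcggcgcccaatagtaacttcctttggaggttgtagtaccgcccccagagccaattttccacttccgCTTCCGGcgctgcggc
SDHD: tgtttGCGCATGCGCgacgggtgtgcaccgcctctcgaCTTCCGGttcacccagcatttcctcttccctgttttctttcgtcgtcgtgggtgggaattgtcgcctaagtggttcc
In the printed part COX6A1 holds 1 ETS match on the reverse strand beginning 16 bases before the start, and SDHD an NRF1 match beginning 110 and an ETS match beginning 77 bases before it. The stretches printed for NDUFS1 and NDUFB4 hold none of the 3 motifs. Elsewhere in the window of 300 bases NDUFS1 has an ETS match, and NDUFB4 and COX6A1 each have an NRF1 match, so all 4 genes are among the 29 with a match.

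Genes that build or feed the chain were read from lists of their own. Of 23 complex IV assembly factors 1 rose and none fell (limma, adjusted p under 0.05), where 0.319% of all genes rose. An unadjusted p under 0.05 was found for 8, all higher (34.8%, beside 9.11% of all genes higher), and 19 had a higher mean. The list median was 0.20, at 0.20, 0.23 and 0.18 in knockdown clones 1, 2 and 3, with no reversal between clones as in the subunits. The gene that rose was COX10, which makes the haem precursor of complex IV, at 8.25, 8.13 and 8.15 in knockdown and 7.50, 7.58 and 7.69 in control clones (0.59, SE 0.09, limma adjusted p = 0.0491). Its 20 neighbours on chromosome 17 had a median change of 0.50. The call was lost without knockdown clone 2 (limma adjusted p = 0.0888) or without any control clone (from 0.241 to 0.300), while the change stayed between 0.54 and 0.64. Averaging probe sets (limma adjusted p = 0.0893) or an intensity trend with a robust prior (0.0807) also ended it. So did the RNA quality covariate (0.311), the replicate block (0.186) and leaving out _x_at and _s_at probe sets (0.279). Named after their values were seen, LRPPRC, which stabilises mitochondrial messages, gave 0.64 (SE 0.12, limma adjusted p = 0.0738) and the copper carrier SCO1 gave 0.71 (SE 0.20, limma adjusted p = 0.176).

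Assembly factors of the other complexes had 0 calls in limma among 18 (complex I), 4 (II), 6 (III) and 6 (V) genes, with 4, 0, 1 and 1 at an unadjusted p under 0.05 (16.8% of all genes) and medians of 0.055, 0.040, 0.077 and 0.080. TIMMDC1 and NDUFAF4, both needed to build complex I, gave −0.41 (SE 0.14) and 0.37 (SE 0.10). TTC19, a complex III factor, read 10.28, 10.26 and 10.67 in knockdown and 9.71, 9.67 and 9.88 in control clones (0.64, SE 0.13, limma adjusted p = 0.0920). It is a neighbour of COX10, and its own neighbours had a median change of 0.45. SDHAF2 and SDHAF1 of complex II gave −0.26 (SE 0.15) and 0.16 (SE 0.10), UQCC2 of complex III 0.16 (SE 0.13). DMAC2L and ATPAF2 of complex V gave 0.48 (SE 0.09, limma adjusted p = 0.0757) and 0.23 (SE 0.12). The neighbours of TIMMDC1, DMAC2L and ATPAF2 had median changes of −0.28, 0.32 and 0.39, each in the direction of the gene. Those of NDUFAF4, SDHAF2, SDHAF1 and UQCC2 had 0.080, 0.0083, −0.030 and −0.024. Whether neighbourhoods contribute to these changes was not tested.

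Among 16 measured genes of pyruvate dehydrogenase and the citric acid cycle 1 fell and none rose (limma), where 0.42% of all genes fell. Of the 4 with an unadjusted p under 0.05 (25%, beside 16.8% of all genes) 3 were higher, 13 genes had a higher mean, and the median was 0.12. The 3 higher ones, named after their values were seen, were DLAT and DLD of pyruvate dehydrogenase and SUCLA2, a succinyl-CoA ligase subunit (limma adjusted p from 0.107 to 0.234). The gene that fell was MDH2, the malate dehydrogenase of mitochondria, at 12.17, 12.04 and 12.16 in knockdown and 12.70, 12.65 and 12.66 in control clones (−0.54, SE 0.08, limma adjusted p = 0.0491). Its dimmer probe set gave −0.71. MDH2 has 3 called genes of the same direction (STYXL1, HSPB1 and GSAP) among its neighbours on chromosome 7, and 19 of its 20 neighbours were lower, with a median of −0.59. The call was lost without knockdown clone 2 (limma adjusted p = 0.0923) or any control clone (from 0.274 to 0.300), with the change between −0.56 and −0.50. Centring the arrays (0.0506), averaging probe sets (0.0994), the covariate (0.244), the block (0.186) and leaving out _x_at and _s_at probe sets (0.276) also ended it.

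Cytochrome c and the enzymes of coenzyme Q synthesis had no call among 14 genes, 0 at an unadjusted p under 0.05 in limma and a median of 0.0072, with COQ2 at 0.37 (SE 0.17) and COQ6 at 0.28 (SE 0.15). Of 75 mitochondrial ribosomal proteins none passed in limma, 17 had an unadjusted p under 0.05 (22.7%, beside 16.8% of all genes; 13 higher, 4 lower), and 56 had a higher mean. Their median was 0.12, at 0.14, 0.17 and −0.0096 in clones 1, 2 and 3. MRPS18B gave 0.50 (SE 0.09, limma adjusted p = 0.0621) and MRPS22 −0.44 (SE 0.08, limma adjusted p = 0.0756). The neighbours of MRPS18B and MRPS22 had median changes of 0.11 and −0.35. The 15 regulators of mitochondrial biogenesis, among them PPARGC1A, NRF1 and TFAM, had 0 calls in limma and a median of 0.070. At an unadjusted p under 0.05 in limma 3 were higher (20%, beside 9.11% of all genes higher). PPRC1, a coactivator, gave 0.34 (SE 0.08, limma adjusted p = 0.133) and TWNK, the helicase of mitochondrial DNA, 0.37 (SE 0.11).

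The respiratory genes were also set beside genes that tie respiration to oxygen supply. Of 10 such genes measured outside the subunits none passed in limma, 5 had an unadjusted p under 0.05 (beside 16.8% of all genes; 1 higher, 4 lower), and the median was −0.22. PDK1, the kinase that keeps pyruvate out of the citric acid cycle, read 8.91, 8.82 and 9.22 in knockdown and 9.73, 9.70 and 9.80 in control clones (−0.76, SE 0.12, limma adjusted p = 0.0522). On all 6 clones it passed without dim probe sets (limma adjusted p = 0.0484) and with array weights (0.0120). Leaving out clone 3 also brought it past the limit (0.00817, in a fit calling 6.19% of all genes), and without clone 1 it was just under the limit (3.58% called). EPAS1, an alpha subunit of the hypoxia-inducible factors, read 9.57, 9.22 and 9.15 against 9.97, 9.96 and 9.99 (−0.67, SE 0.12, limma adjusted p = 0.0698) and passed with array weights (0.0216), without clone 1 (0.0175) or without clone 3 (0.0389, all limma). HIF1A, another alpha subunit and the 1 gene that was higher, named after its values were seen, read 12.71, 12.52 and 12.66 against 12.21, 12.23 and 12.21 (0.42, SE 0.09, limma adjusted p = 0.0978), without overlap. The difference between these lists and the subunits was not tested.

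**Figure D4:**
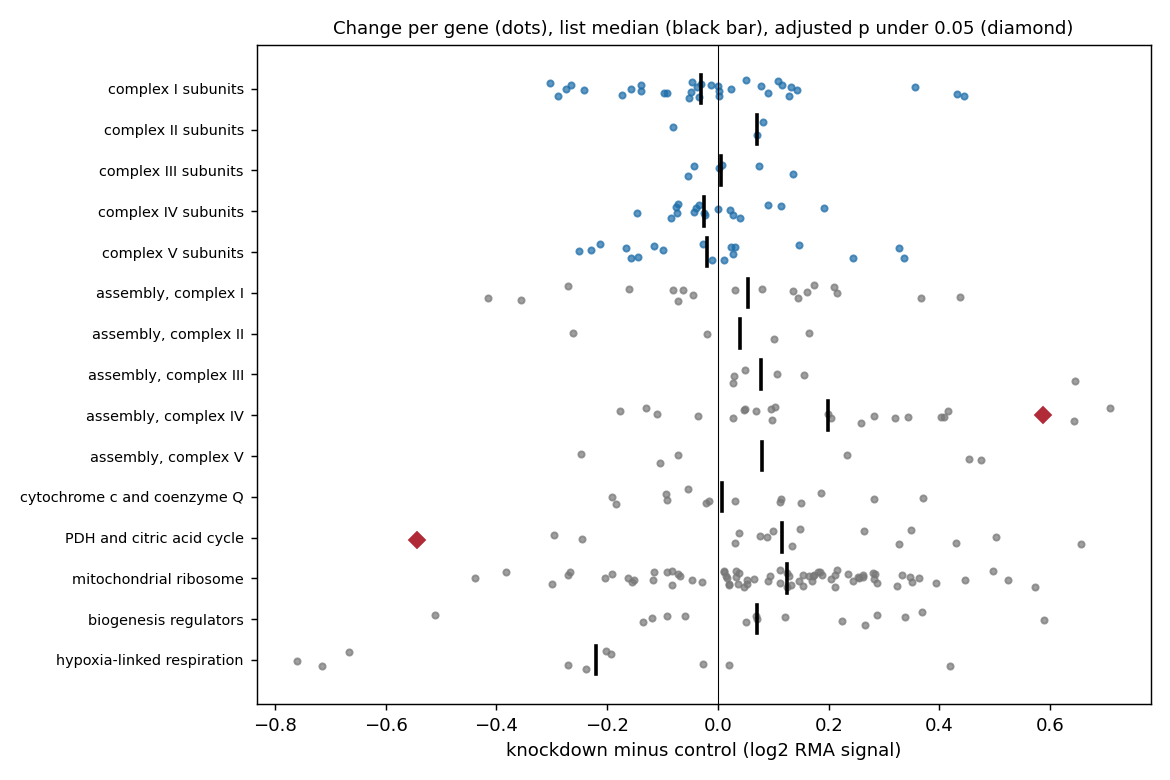
Change of each gene in log2 RMA signal (dots) for the subunits of complexes I to V (blue) and for related lists (grey), with the list median as a black bar and genes called in limma at an adjusted p under 0.05 as red diamonds. Subunit medians lie within 0.08 of 0, the complex IV assembly median is 0.20 with COX10 called, and MDH2 is the called gene to the left.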

How the data were processed

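Signals are on a log2 scale as deposited: the authors ran RMA, and the submitters' processing notes name Expression Console 1.0. RMA gives every array the same distribution, which hides any shift common to most transcripts. The number of arrays, 3 per group, limits precision. Labelling started from 6 µg of total RNA with a 3′ in vitro transcription kit, per the labels' protocols. The table had 0 columns of other samples. Of 54613 probe sets that are not controls, 41091 carried 1 symbol in the platform annotation, 1801 several and 11721 none. Symbols were updated through gene identifiers in RefSeq (GRCh38.p14), which matched 41037 probe sets. For a gene with several, the brightest on average across all 6 arrays was used.

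Values were fitted with limma 3.58.1 (lmFit, eBayes) in R 4.3.3 on group alone, tested two-sided and adjusted by Benjamini-Hochberg over the 54613 probe sets. The code was tested on simulated data. The members and lists were chosen with earlier results of these data known. Members were named when called, among the 4 smallest unadjusted p of their complex, as SDH genes or complex IV isoform pairs, or for the 3 largest SDs in a group; in other lists called genes were named, or the 2 with the smallest unadjusted p. Alternatives were other probe set choices, a filter on dim probe sets, other variance models, array weights, centring, the RNA quality index, the replicate number as a block and leaving out each clone. Same-numbered clones were checked for pairing and had correlations of −0.070, −0.096 and −0.042, so they were taken as unpaired.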

Additional observations from a re-analysis of the deposited data

How the results depend on the processing

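No member was called in limma with the mean of all probe sets or without probe sets ending in _x_at or _s_at. The same held without probe sets of mean log2 5 or below and with array weights, centring or the RNA quality index. It held with an intensity trend and robust prior, and with COXFA4, COXFA4L2 and CYC1 counted as members (80 genes, chosen after the annotation was seen). The members at an unadjusted p under 0.05 numbered 4 to 11 in these fits (limma). The share of all genes at that limit is not given for them, so these counts cannot be read against it. Leaving out 1 clone gave 0 to 2 called members: 1 without knockdown clone 1 (complex V) and 2 without clone 3 (1 each in complexes I and V), and between 2 and 1225 calls over all genes. The member median was −0.081 to 0.027 over these fits. With the index as a covariate the medians were −0.15 (all members), −0.15 (I), −0.23 (III), −0.17 (IV) and −0.17 (V); the complex II median was −0.015 with the mean of all probe sets. WASF3 was called with array weights (−1.16, limma adjusted p = 0.0359). Over fits without 1 clone it ran from −1.63 (without knockdown clone 2) to −0.99 (without knockdown clone 3, limma adjusted p = 0.0175, called). Over all genes the 146 calls became 238 with the mean of all probe sets and 79 with the intensity trend and robust prior. They became 714 with array weights and 1 with the covariate. Without knockdown clones 1, 2 and 3 they were 707, 20 and 1225, and without control clones 1, 2 and 3 they were 2, 3 and 2. With the replicate number as a block 0 members and 3 genes in all were called, and the numbers do not pair the clones. Depth does not apply to arrays; genes at background level carry the least certain values.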
